A study of Mus musculus with 34 samples.

Results

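The 42 genes described here encode the proteins that copy DNA in S phase and rebuild chromatin on the copied strands. They were taken by gene symbol from the deposited table of 21789 genes. All 42 were among the 18319 genes with enough counts to be tested, so no member was lost to the filter on low counts. They were ordered by 8 roles: origin licensing (11 genes), helicase activation (6), priming and polymerases (6), sliding clamp and loader (6), single-strand binding (3), Okazaki fragment joining (2), nucleotide supply (4) and chromatin assembly (4).

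RNA came from whole embryonic mouse lungs, collected on embryonic days E12.5, E14.5, E16.5 and E18.5, with E0.5 as the day of the plug. Control lungs, labelled as having no Lin28A expression, gave 3 libraries at E12.5, 3 at E14.5, 3 at E16.5 and 5 at E18.5. Lungs with global Lin28A expression (title tag Vasa) gave 3, 4, 3 and 5 libraries at the same days. At E18.5 there were also 3 libraries with expression in the lung epithelium (title tag Nkx2.1) and 2 with expression in the mesenchyme (title tag Wt1). All groups, controls included, carry the same treatment label of 1 g/L doxycycline in the drinking water from E0.5. The labels do not describe the alleles, the drivers or the strain, and they do not say that replicates are separate animals or litters, so each p-value measures only the spread between these samples.

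Lin28A is an RNA-binding protein of early embryonic cells that blocks the maturation of let-7 microRNAs. A replication origin is licensed in G1, when the origin recognition complex, Cdc6 and Cdt1 load the Mcm2 to Mcm7 helicase onto DNA. In S phase the helicase is activated, polymerases copy both strands behind the Pcna clamp, and chaperones place histones on the new DNA. Most of these genes are known E2F targets and are transcribed in cycling cells and little in resting ones, and in the mouse lung cycling is known to slow before birth.

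Total counts per library ranged from 7147301 to 17624884. Lin28a was at 0.191 to 4.15 scaled counts (CPM, counts set to a common library total) in the control libraries and at 289 to 1300 CPM in the transgenic ones. This separates control from transgenic libraries only, and checks neither the day nor the kind of Lin28A expression. Lung epithelial markers (11 genes) were detected in every group, with 1 of them at 0 in all E12.5 libraries. Their summed level was 556 to 731 CPM in E12.5 controls and 16500 to 26000 CPM in E18.5 controls. Summed markers of another tissue were above a fixed cutoff for that tissue in 7 libraries. Cardiomyocyte genes were so in E12.5 controls 2 and 3 and E12.5 global 1, and thymus genes in E14.5 control 3. Kidney genes were so in E14.5 global 4, liver genes in E18.5 control 1, and erythroid genes in E18.5 epithelial 1, at 24500 CPM. The other libraries were not free of such markers. Cardiomyocyte genes summed to 1130 CPM in E18.5 control 3 and 1140 CPM in E14.5 global 1. In whole lungs, fewer cycling cells and less of each transcript per cell cannot be told apart. Levels below are CPM after scaling for library composition (trimmed mean of M values), differences are log2 folds ± standard error (SE), and a gene is called at an adjusted p under 0.05 in edgeR's quasi-likelihood test over all 18319 genes.

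In control lungs the whole set fell between E14.5 and E18.5, while in lungs with global Lin28A most members had small negative log2 folds and few were called. The mean log2 CPM over the 42 genes was 6.81 ± 0.0656 (SD, n = 3) in E12.5 controls and 5.98 ± 0.182 (SD, n = 3) in E16.5 controls. In E18.5 controls it was 4.26, 4.09, 4.40, 4.92 and 5.10. In global lungs it was 6.85 at E12.5 and 6.65 ± 0.0458 (SD, n = 3) at E16.5. At E18.5 it was 6.32 to 6.52 in them (n = 5), above every E16.5 and E18.5 control library. The 42 genes took 0.621 to 0.726% of all counts in the E12.5 libraries and 0.0896 to 0.186% in the E18.5 controls.

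**Figure D1:**
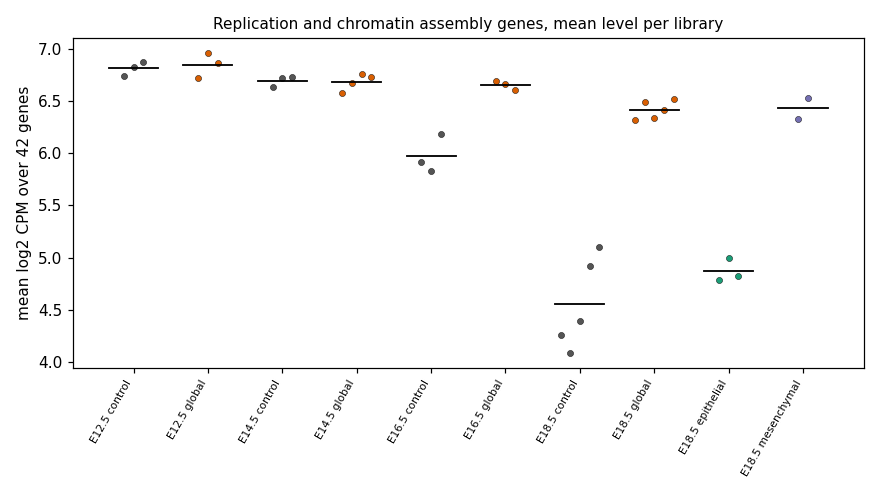
Mean log2 CPM over the 42 genes (vertical axis) in each of the 34 libraries (points), by group, with a bar at the group mean. The E18.5 control and epithelial libraries lie lowest, between 4.09 and 5.10, and the E18.5 global and mesenchymal libraries lie between 6.32 and 6.53.

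The decline in control lungs came in 2 steps. From E12.5 to E14.5 no member rose, where 2063 of 18319 tested genes did. The 1 that fell, where 5.44% of all tested genes fell, was Nasp, a chaperone of histone H3 and H4. It fell by 0.70 ± 0.17 on the log2 scale (adjusted p = 0.0035). Without the 7 libraries high in other markers this value was -0.62, with E12.5 control 1 as the only library left of its group. The count of called members was 2 without E12.5 control 2 or E14.5 control 2. From E14.5 to E16.5, 38 of 42 fell (17.8% of all genes), with a median log2 fold of -0.69 and a range of -1.08 to -0.29. From E16.5 to E18.5 all 42 fell (19.1% of all genes), with a median of -1.44 and a range of -2.00 for Cdc6 to -0.48 for Gins4. The median over all tested genes lay between -0.04 and 0.06 in every comparison here. The mean CPM in controls was 9.75 times higher at E12.5 than at E18.5 for Cdc6 and 1.82 times higher for Gins4, with the other members in between.

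Over the same days in global Lin28A lungs the log2 folds were mostly negative but small, and few were called. From E12.5 to E14.5 the median was -0.18, with 1 of 42 positive, and no member was called lower by edgeR (0.961% of all genes were) or had an unadjusted p under 0.05. From E14.5 to E16.5 the median was -0.04, with 16 of 42 positive. No member was called lower (2.67% of all genes), 2 had an unadjusted p under 0.05, and a fit of the compared groups alone called 3. From E16.5 to E18.5 the median was -0.23, with 2 of 42 positive, and Pcna was called lower, by 0.53 ± 0.15 on the log2 scale (-0.53, adjusted p = 0.0343, 1.86% of all genes). In that step 7 members had an unadjusted p under 0.05, and a fit of the compared groups alone called 10 lower. Throughout, shares of all genes are those of the fit of 10 groups, and none is given for counts under other fits. The Pcna call ended when any of 6 of the 8 libraries in the comparison was left out. The ratio of mean CPM at E12.5 to E18.5 was between 0.946 for Rpa3 and 1.79 for Rrm2 in these lungs.

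**Figure D2:**
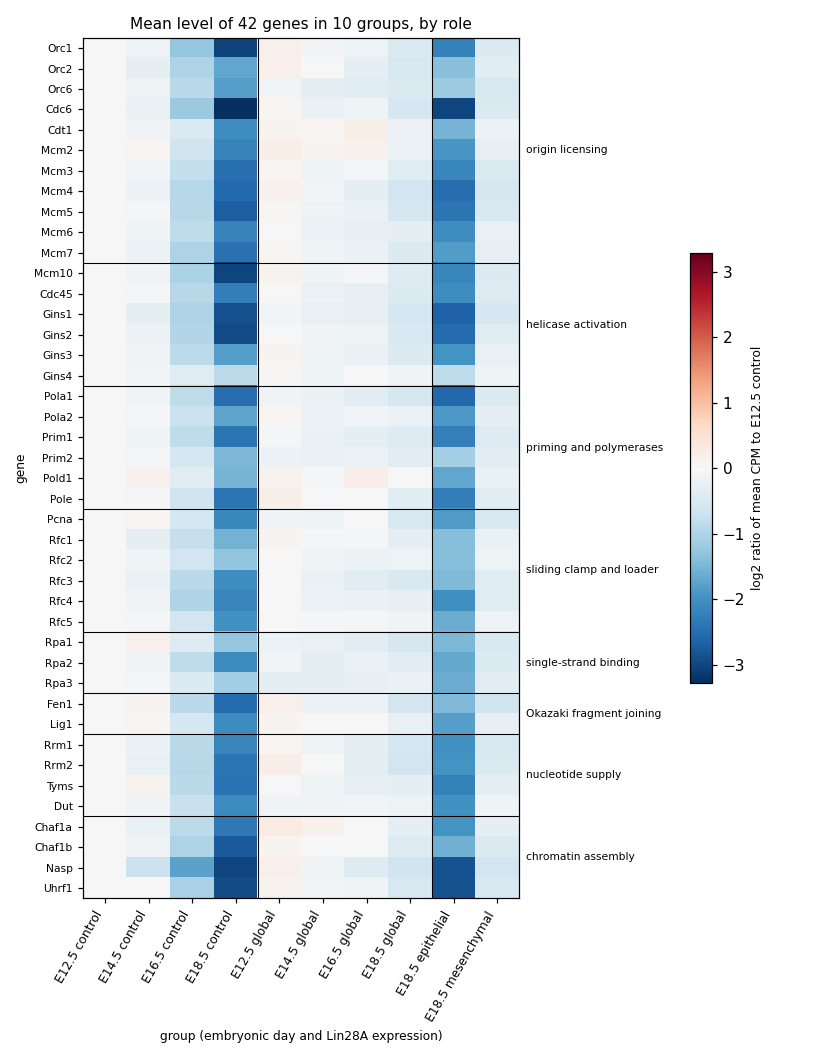
Log2 ratio of each group's mean CPM to the E12.5 control mean (colour) for the 42 genes (rows, ordered by role) in the 10 groups (columns). Ratios are lowest in the E18.5 control and epithelial columns, where Cdc6 had the largest fall in controls (9.75 times from E12.5 to E18.5), and near 0 in the early groups.

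Set against controls of the same day, global Lin28A lungs showed no called difference at E12.5. None of the 42 genes was called higher (0.126% of all genes) or lower (0.104%), none had an unadjusted p under 0.05, and DESeq2's Wald test called none either. At E14.5, 1 member was higher (4.44% of all genes) and 1 lower (8.43%). Nasp was higher by 0.59 ± 0.16 (adjusted p = 0.011), at 281, 378 and 368 CPM in controls and 473, 496, 525 and 565 CPM in global lungs. Rpa1, the large subunit of the single-strand binding protein RPA, was lower by 0.40 ± 0.10 on the log2 scale (-0.40, adjusted p = 0.0106), at 279, 308 and 275 CPM in controls against 199 to 237 CPM. The Nasp call ended without E14.5 control 1 (0.47, adjusted p = 0.0858) and the Rpa1 call without E14.5 control 2 (-0.35, adjusted p = 0.0604). Without the 7 libraries high in other markers they were 0.60 (adjusted p = 0.0697) and -0.42 (adjusted p = 0.0682).

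At E16.5, 37 of 42 members were higher in global Lin28A lungs, where 17.0% of all genes were, and none was lower (20.1% of all genes). The median log2 fold was 0.64, from 0.08 for Rpa1 to 1.33 for Nasp. In 40 of 42 every global library lay above every control library (27.6% of all genes), the other two being Rpa1 and Rpa3. At E18.5 all 42 were higher (32.1% of all genes), with a median of 1.86 and a range of 0.72 for Rpa1 to 2.68 for Cdc6, and none of the 42 overlapped between groups (23.8% of all genes). The difference of the global effect between days was tested directly. It was not larger at E14.5 than at E12.5 for any member (0.0382% of all genes). It was larger at E16.5 than at E14.5 for 16 of 42 (4.00% of all genes), by a median of 0.65, and larger at E18.5 than at E16.5 for 39 of 42 (7.04%), by a median of 1.17. The count of 16 varied widely: it was 38 in a fit of the compared groups alone, 5 with scaling by total counts, 10 without a filter on low counts and 4 without the 7 libraries high in other markers. With single libraries left out it was 20 without E16.5 control 3, between 1 and 11 without any other library of the 4 groups, and lowest without E16.5 control 2.

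**Figure D3:**
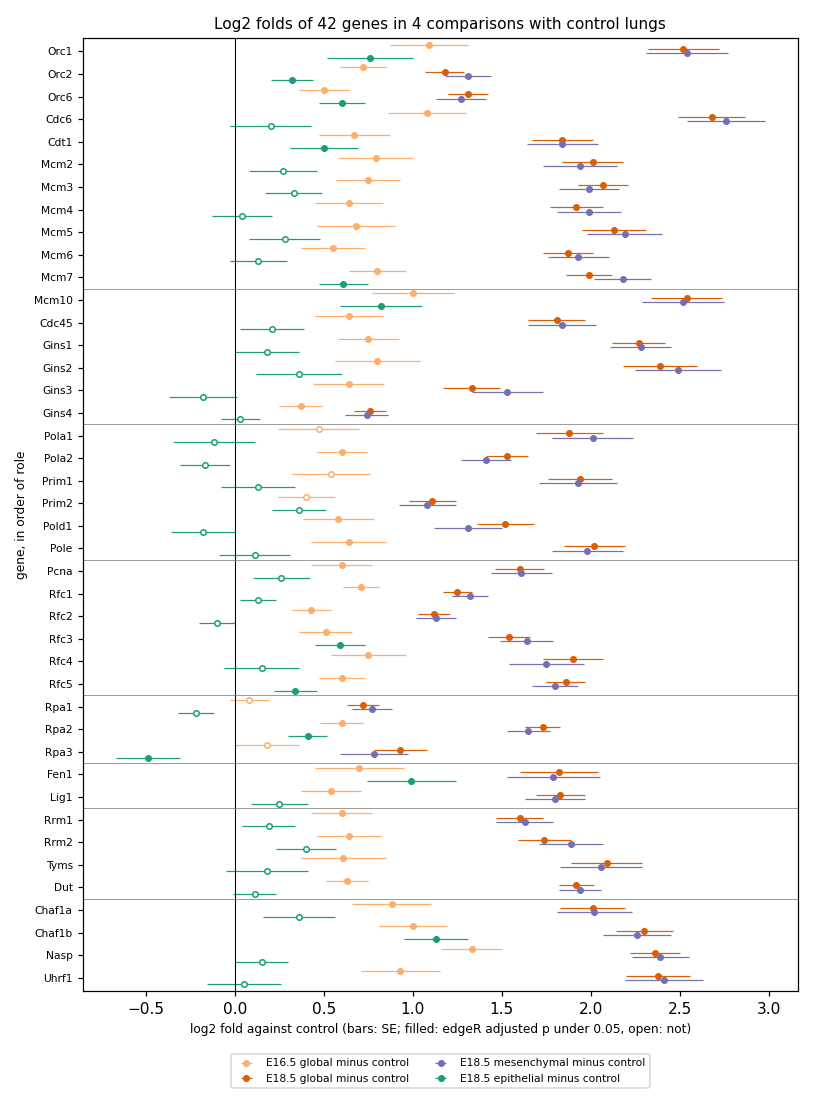
Log2 folds ± SE of the 42 genes (rows) for 4 comparisons with same-day controls: E16.5 global, E18.5 global, E18.5 mesenchymal and E18.5 epithelial. Filled points are called (adjusted p under 0.05); medians are 0.64, 1.86, 1.87 and 0.20.

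Origin licensing genes were among those with the largest folds. All 11 were higher in global lungs at E16.5 (median 0.72) and at E18.5 (median 1.99). Cdc6, the ATPase that helps load the helicase (chromosome 11, 98907801 to 98923940, GRCm38), was at 37.4, 27.8 and 43.5 CPM in E16.5 controls and 81.0, 80.9 and 68.9 CPM in global lungs, a log2 fold of 1.08 ± 0.22 (adjusted p = 0.000291). At E18.5 it was at 4.33, 5.18, 7.39, 11.6 and 14.8 CPM in controls and 53.6, 56.8, 55.0, 53.7 and 71.2 CPM in global lungs. Every global value was above every control value, by 2.68 ± 0.19 on the log2 scale (adjusted p = 1.02e-12).

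Orc1, the largest subunit of the origin recognition complex, was at 1.35 to 4.36 CPM in E18.5 controls, with a median of 1.76, and at 11.9 to 17.7 CPM in global lungs. Its log2 fold was 1.09 ± 0.22 at E16.5 and 2.52 ± 0.20 at E18.5 (adjusted p = 0.000302 and 6.24e-12). Orc2, another subunit of that complex, moved less at E18.5: it was at 16.9 to 21.6 CPM in controls and 37.7 to 47.5 CPM in global lungs (1.18 ± 0.11, adjusted p = 1.07e-10). Cdt1, which loads the helicase with Cdc6, had a median of 15.6 CPM and a highest value of 29.5 CPM in E18.5 controls, and was at 56.0 to 80.3 CPM in global lungs (1.84 ± 0.17, adjusted p = 1.22e-10). Neither gene overlapped between these groups.

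Level per length was CPM over the union of all annotated exons, 6.96 kb for Mcm2 and 3.59 to 4.67 kb for Mcm3 to Mcm7. A longer union gives a lower value at the same CPM, so these values do not rank the subunits by expression. As a mean over all libraries, which mixes groups that differ several-fold, Mcm4 was at 69.1 CPM per exonic kb, Mcm3 at 59.3, Mcm6 at 58.4, Mcm5 at 57.3, Mcm7 at 47.0 and Mcm2 at 29.1, and Orc1 was at 3.96. Mcm5 (chromosome 8, 75109569 to 75128439) was at 36.9, 26.6, 43.1, 74.8 and 79.8 CPM in E18.5 controls and at 218 to 248 CPM in global lungs. Its log2 fold there was 2.13 ± 0.18 (adjusted p = 2.59e-11), and all 6 subunits were within 1.87 (Mcm6) and 2.13 (Mcm5). Mcm2, a subunit that also binds histones, was at 36.1 to 83.0 CPM in those controls and 202 to 259 CPM in global lungs (2.01 ± 0.17, adjusted p = 3.34e-11). For both genes the lowest global library was above the highest control library.

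**Figure D4:**
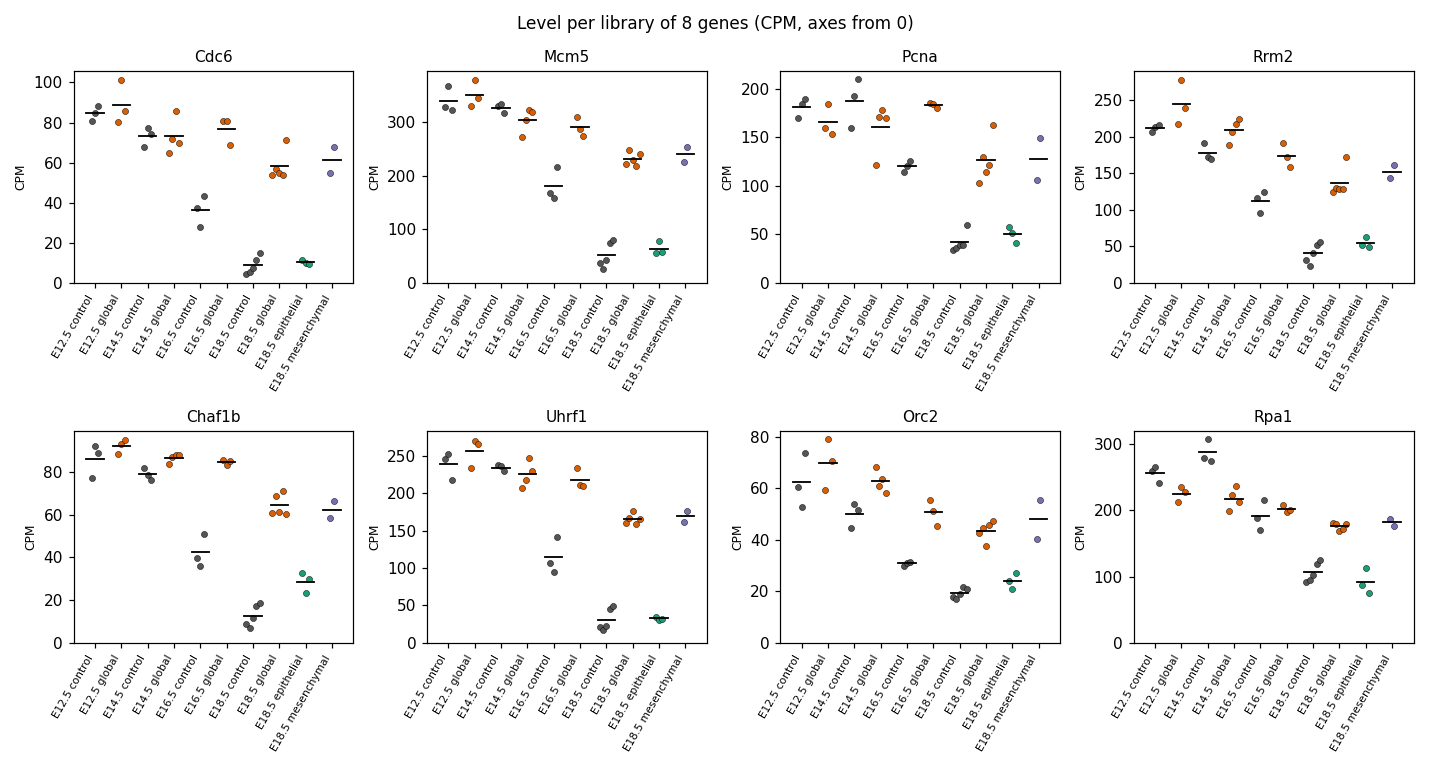
CPM (vertical axes, from 0) in each library (points) of the 10 groups for Cdc6, Mcm5, Pcna, Rrm2, Chaf1b, Uhrf1, Orc2 and Rpa1. In E18.5 controls Cdc6 lies between 4.33 and 14.8 CPM and in global lungs between 53.6 and 71.2 CPM; the log2 fold of Rpa1 was the smallest of the 42 (0.72).

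Promoter sequence was read for the 35 members found in RefSeq's promoter windows (GRCm38.p6), each running from 250 bases before to 50 bases after the annotated start. Not found were Gins1, Gins2, Gins4, Mcm4, Pole, Prim2 and Rfc2. The E2F-type motifs TTTCCCGC, TTTGGCGC, TTTCGCGC and TTTGCCGC were searched on both strands. At least 1 of them was in 13 of 35 members (37.1%) and in 704 of 27025 genes with a window (2.6%). The genes were Orc1, Cdc6, Cdt1, Mcm3, Mcm5, Mcm6, Mcm7, Gins3, Pola1, Pold1, Rfc3, Lig1 and Uhrf1. TTTGGCGC or TTTCGCGC alone was in 28.6% of members and 0.929% of all genes. CCAAT, the letters of the NF-Y motif, was in 68.6% of members and 41.1% of all genes, and TTTGAA, the letters of the cell cycle homology region, in 14.3% and 20.2%. A match is a run of letters and not a shown binding site, and the windows hold no measure of binding.

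The windows of 5 members are printed 5′ to 3′ on the strand of the gene, with matches to the E2F-type motifs in capitals. They are Cdc6, with the largest log2 fold at E18.5 (chr11:98907901-98908200, plus strand), Orc1 (chr4:108579204-108579503, plus strand), Mcm5 (chr8:75109259-75109558, plus strand), Mcm6 (chr1:128359656-128359955, minus strand), and Rpa1, with the smallest (chr11:75348334-75348633, minus strand). In Mcm5 a pair of matches on opposite strands overlapped, first base at -153 and -149 from the start, and in Mcm6 another such pair lay at -110 and -106 with a further match at -47. Cdc6 had a match at -138 and Orc1 at -27, and the Rpa1 window held none of these letters.
Cdc6: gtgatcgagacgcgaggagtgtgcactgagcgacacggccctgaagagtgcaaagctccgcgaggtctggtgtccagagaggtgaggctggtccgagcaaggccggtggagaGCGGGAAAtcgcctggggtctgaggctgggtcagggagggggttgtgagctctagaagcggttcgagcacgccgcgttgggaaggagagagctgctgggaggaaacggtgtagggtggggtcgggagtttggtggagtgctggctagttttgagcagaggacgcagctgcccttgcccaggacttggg
Orc1: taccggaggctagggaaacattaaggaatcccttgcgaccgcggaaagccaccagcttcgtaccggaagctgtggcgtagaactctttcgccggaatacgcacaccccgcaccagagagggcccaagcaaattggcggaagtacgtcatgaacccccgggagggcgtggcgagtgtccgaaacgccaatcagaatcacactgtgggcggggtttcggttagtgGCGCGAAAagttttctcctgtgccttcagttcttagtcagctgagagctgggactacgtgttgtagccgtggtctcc
Mcm5: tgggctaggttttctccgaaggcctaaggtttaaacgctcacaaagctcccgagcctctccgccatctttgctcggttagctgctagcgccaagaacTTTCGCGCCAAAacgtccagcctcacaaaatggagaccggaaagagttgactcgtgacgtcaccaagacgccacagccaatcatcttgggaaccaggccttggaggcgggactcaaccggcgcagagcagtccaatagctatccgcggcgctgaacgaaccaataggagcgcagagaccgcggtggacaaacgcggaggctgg
Mcm6: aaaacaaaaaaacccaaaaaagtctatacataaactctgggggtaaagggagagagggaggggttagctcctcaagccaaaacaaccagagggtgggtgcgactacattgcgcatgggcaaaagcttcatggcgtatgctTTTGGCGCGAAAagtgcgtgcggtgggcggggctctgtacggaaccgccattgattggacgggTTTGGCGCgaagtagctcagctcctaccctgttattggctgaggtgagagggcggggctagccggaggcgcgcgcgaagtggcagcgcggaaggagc
Rpa1: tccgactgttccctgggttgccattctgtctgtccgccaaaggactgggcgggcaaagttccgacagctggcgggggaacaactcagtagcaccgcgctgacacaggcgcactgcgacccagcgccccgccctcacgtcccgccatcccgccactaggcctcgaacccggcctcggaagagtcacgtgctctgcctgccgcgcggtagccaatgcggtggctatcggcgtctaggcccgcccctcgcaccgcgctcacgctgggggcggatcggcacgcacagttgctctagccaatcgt

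Among the 6 helicase activation genes, Mcm10, a scaffold that helps the loaded helicase open DNA, had the largest difference at E18.5. It was at 6.14 to 18.8 CPM in controls, with a median of 7.38, and at 57.1 to 70.1 CPM in global lungs (2.54 ± 0.20, adjusted p = 5.97e-12). Gins2 (2.39 ± 0.21) and Gins1 (2.27 ± 0.15), subunits of the GINS complex that joins the helicase, were close to it. Gins4, a subunit of the same complex, was higher by only 0.76 ± 0.09 (adjusted p = 3.08e-08), at 27.0 to 38.0 CPM in controls and 46.2 to 58.7 CPM in global lungs. The 6 genes were all called at both days, with medians of 0.69 at E16.5 and 2.04 at E18.5.

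Polymerase and primase genes had smaller differences at E16.5, where 3 of 6 were called (median 0.56). The 3 that missed the threshold were Pola1 (0.47 ± 0.23, adjusted p = 0.111), the catalytic subunit of the priming polymerase, and the primase subunits Prim1 (0.54 ± 0.22, adjusted p = 0.0529) and Prim2 (0.40 ± 0.16, adjusted p = 0.0575). At E18.5 all 6 were higher (median 1.71). Pole, the catalytic subunit of the leading-strand polymerase, was at 13.6 to 38.3 CPM in E18.5 controls and 94.0 to 116 CPM in global lungs (2.02 ± 0.17, adjusted p = 2.55e-11).

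The clamp Pcna (chromosome 2, 132249162 to 132253314), a ring that holds polymerases on DNA, was at 114, 121 and 126 CPM in E16.5 controls and 186, 184 and 180 CPM in global lungs (0.60 ± 0.17, adjusted p = 0.00654). At E18.5 it was at 34.3, 36.0, 38.9, 39.4 and 59.1 CPM in controls and 103, 130, 114, 122 and 163 CPM in global lungs (1.60 ± 0.14, adjusted p = 4.42e-11). The groups did not overlap on either day. Of the clamp loader, Rfc1, its large subunit, was at 93.8 to 112 CPM in E16.5 controls and 162 to 173 CPM in global lungs (0.71 ± 0.10, adjusted p = 4.8e-06). Rfc4, a small subunit, reached 1.90 ± 0.17 at E18.5 (7.31 to 16.0 CPM against 28.6 to 44.6 CPM). All 6 genes of this role were called at both days, with medians of 0.60 and 1.57.

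The RPA subunits, which coat single-stranded DNA in replication and repair alike, differed among themselves. Rpa1 (chromosome 11, 75298166 to 75348324) was at 189, 171 and 215 CPM in E16.5 controls and 208, 198 and 200 CPM in global lungs, overlapping groups with a log2 fold of 0.08 ± 0.11 (adjusted p = 0.645). Rpa3 was not called at E16.5 either (0.18 ± 0.18, adjusted p = 0.467), whereas Rpa2 was (0.60 ± 0.12, adjusted p = 0.000209). At E18.5 Rpa1 was at 91.3 to 125 CPM in controls and 169 to 181 CPM in global lungs, a difference of 0.72 ± 0.09 (adjusted p = 3.67e-08). Rpa2 was then at 16.6 to 26.4 CPM against 63.3 to 75.0 CPM (1.73 ± 0.10, adjusted p = 1.41e-14).

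Both genes that finish Okazaki fragments were called at both days. Fen1, the flap nuclease, was low throughout (3.48 CPM per exonic kb), at 0.802 to 3.25 CPM in E18.5 controls and 7.32 to 8.87 CPM in global lungs (1.82 ± 0.22, adjusted p = 2.09e-08). Its exons overlap the antisense gene Gm10143, and without a stated strand the reads of the pair cannot be told apart. Lig1, the ligase, was at 39.0 to 72.8 CPM in those controls and 177 to 205 CPM in global lungs (1.83 ± 0.14, adjusted p = 4.43e-12). Its call at E16.5 (0.54 ± 0.17) ended without E16.5 control 2 (0.43, adjusted p = 0.0992), and that of Fen1 ended without any of E16.5 controls 1 and 2 and E16.5 global 1 and 2.

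The 4 nucleotide supply genes make deoxynucleotides. Rrm2, the regulated subunit of ribonucleotide reductase (chromosome 12, 24708241 to 24714146), was at 116, 95.1 and 124 CPM in E16.5 controls and 192, 172 and 159 CPM in global lungs (0.64 ± 0.18, adjusted p = 0.00678). At E18.5 it was at 31.0, 23.5, 40.9, 51.1 and 56.0 CPM in controls and 125, 130, 128, 128 and 173 CPM in global lungs (1.74 ± 0.15, adjusted p = 3.24e-11). Tyms, thymidylate synthase, was at 12.9 to 40.3 CPM in E18.5 controls and 87.8 to 114 CPM in global lungs (2.09 ± 0.20, adjusted p = 2.12e-10). At E16.5 the Tyms difference of 0.61 ± 0.24 (adjusted p = 0.0432) passed the threshold only with all 6 libraries of that day. The E16.5 call of Rrm2 ended without E16.5 control 2 (0.54, adjusted p = 0.0506).

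Since Lin28A acts on let-7, the 3′ untranslated regions of the 42 genes (GENCODE M21 transcripts) were searched for CTACCTC, the 7 letters that pair with bases 2 to 8 of let-7. The mature let-7a sequence from RefSeq shows that seed in capitals, and the stretch of Rrm2 around its match (chr12:24713362-24713368, plus strand) shows the paired letters in capitals.
mmu-let-7a-5p: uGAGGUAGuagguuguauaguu
Rrm2: aaagctgtgtagCTACCTCagtcctgtttg
Rrm2 was the 1 member of 42 with a match (2.38%), against 1968 of 20979 genes (9.38%). Its log2 fold at E18.5 was 1.74. A part of let-7 in the differences of the 42 genes was not tested. A match of letters is not a shown site of let-7, and no let-7 level was measured by this poly(A) assay.

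Chromatin assembly genes had the largest median of any role, 0.96 at E16.5 and 2.33 at E18.5, with 4 of 4 higher on both days. Nasp (chromosome 4, 116601052 to 116627941) was at 151, 153 and 186 CPM in E16.5 controls and 432, 415 and 390 CPM in global lungs (1.33 ± 0.17, adjusted p = 4.39e-07), the largest fold of any member at that day. At E18.5 it was at 49.7 to 89.2 CPM in controls and 322 to 403 CPM in global lungs (2.36 ± 0.14, adjusted p = 2.02e-14). Uhrf1, which brings the DNA methylase to copied DNA (chromosome 17, 56303321 to 56323486), was at 16.7 to 49.9 CPM in E18.5 controls and 159 to 176 CPM in global lungs (2.38 ± 0.18, adjusted p = 4.21e-12). Chaf1b, a subunit of the CAF-1 histone chaperone (chromosome 16, 93883901 to 93906115), was at 8.66, 7.10, 11.7, 17.2 and 18.8 CPM in those controls and 60.6, 68.7, 61.0, 71.0 and 60.3 CPM in global lungs (2.30 ± 0.16, adjusted p = 4.62e-13).

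Beside these differences, the lung epithelial markers moved the other way. Their summed level was 8690 to 12600 CPM in E16.5 controls and 1510 to 2220 CPM in E16.5 global lungs, and 1630 to 4410 CPM in E18.5 global lungs against the 16500 to 26000 CPM of E18.5 controls. Leukocyte markers (7 genes) were at 467 to 945 CPM in E18.5 controls and 91.3 to 129 CPM in global lungs, and endothelial markers (7 genes) at 2590 to 3720 CPM and 1140 to 1320 CPM. Lung mesenchyme markers (8 genes) were at 3480 to 4740 CPM and 2990 to 3860 CPM. The part of cell makeup in the differences of the 42 genes was not tested.

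In lungs with mesenchymal Lin28A at E18.5 the whole set was higher as well. All 42 members were higher than in controls (27.4% of all genes), by a median of 1.87 and from 0.74 (Gins4) to 2.76 (Cdc6), and none overlapped (29.7% of all genes). Cdc6 was at 55.0 and 67.6 CPM in the 2 mesenchymal libraries (2.76 ± 0.22, adjusted p = 7.77e-11), and Mcm5 at 226 and 254 CPM. Compared directly, no member was higher (0.0109% of all genes) or lower (0.0109%) in global than in mesenchymal lungs, and none had an unadjusted p under 0.05. Those log2 folds lay between -0.19 (Mcm7) and 0.21 (Pold1) with SEs of 0.11 to 0.25. With 2 mesenchymal libraries, a missed threshold does not show that the groups are alike. Epithelial markers summed to 6020 and 2610 CPM in these 2 libraries.

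Lungs with epithelial Lin28A differed less from controls. Of the 42 genes, 11 were higher (18.0% of all genes) and 1 was lower (15.2%), which is 26.2% and 2.38% of the 42, and the median log2 fold was 0.20. The higher ones were Orc1, Orc2, Orc6, Cdt1, Mcm7, Mcm10, Rfc3, Rfc5, Rpa2, Fen1 and Chaf1b. In 3 of 42 every epithelial library lay above every control library (13.5% of all genes): Mcm7, Rfc3 and Chaf1b. Chaf1b had the largest difference, at 32.6, 23.2 and 30.1 CPM against 7.10 to 18.8 CPM in controls (1.13 ± 0.18, adjusted p = 1.18e-05). Rpa3, the small RPA subunit, was the lower one, at 8.03, 13.3 and 8.90 CPM against 12.2 to 19.2 CPM (-0.49 ± 0.18, adjusted p = 0.0331).

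By role, origin licensing had 5 of 11 (median 0.32), nucleotide supply 0 of 4 (median 0.18) and priming and polymerases 0 of 6 (median -0.01). Orc1 was at 3.75, 4.25 and 5.05 CPM against 1.35 to 4.36 CPM in controls (0.76 ± 0.24, adjusted p = 0.0148), and Cdc6 at 11.6, 9.92 and 9.54 CPM within the control range of 4.33 to 14.8 CPM (0.20 ± 0.23, adjusted p = 0.544). Uhrf1 was at 35.3, 30.9 and 32.6 CPM, also within the controls (0.05 ± 0.21, adjusted p = 0.872). Mcm10 and Fen1 were called at 0.82 ± 0.23 and 0.99 ± 0.25 (adjusted p = 0.00598 and 0.00301). Without epithelial library 1, the one high in erythroid markers, these were 0.65 and 0.68 (adjusted p = 0.0672 and 0.0752). The count of 12 called members was 8 without that library, 7 without epithelial 3 and 20 without control 5. It was 2 in a fit of the compared groups alone and 5 without the 7 libraries high in other markers. Orc6 and Chaf1b were called under every alternative.

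Compared with each other at E18.5, all 42 members were lower in epithelial than in mesenchymal lungs (26.8% of all genes), by a median log2 fold of -1.59. The range was -2.56 (Cdc6) to -0.66 (Orc6). Against global lungs the same held, with all 42 higher in global than in epithelial lungs (31.3% of all genes), a median of 1.63 and a range of 0.71 (Orc6) to 2.49 (Cdc6). These comparisons share libraries with those above. Epithelial markers summed to 12800 to 19100 CPM in epithelial lungs, overlapping the control range.

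Global lungs were also set against controls of an earlier day. At E16.5 against E14.5 controls, no member was higher (592 of 18319 genes) and 1 was lower (3.83% of all genes). That was Rpa1, by 0.51 ± 0.11 on the log2 scale (-0.51, adjusted p = 0.00598). The median over the 42 was -0.04. At E18.5 against E16.5 controls, 23 of 42 were higher (15.7% of all genes) and none was lower (3318 of 18319 genes). Over the 42 the median was 0.45, with Nasp at 1.11 ± 0.15 (adjusted p = 3.12e-06). The count of 23 was 11 without E16.5 control 2 and 13 without E16.5 control 1.

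Other genes of DNA replication and the cell cycle were counted by list. Of 34 other replisome and licensing genes, 25 were higher and 1 lower in E16.5 global lungs, and 33 were higher and 1 lower at E18.5, as in mesenchymal lungs, against 12 higher and 4 lower in epithelial lungs. Over all genes 17.0% were higher and 20.1% lower at E16.5, and at E18.5 32.1% and 32.7% in global, 27.4% and 26.9% in mesenchymal and 18.0% and 15.2% in epithelial lungs. The counts of the lists below are to be read beside these shares. The lower one in global lungs, Pold4, an accessory polymerase subunit, was named after its values were seen (-1.26 ± 0.14 at E18.5, adjusted p = 2.84e-09). Gmnn, the inhibitor of Cdt1, was higher by 1.90 ± 0.13 (adjusted p = 4.44e-13). Of 12 other nucleotide synthesis genes 10 were higher and 2 lower at E18.5, led by Dctd, deoxycytidylate deaminase, at 4.00 ± 1.75 CPM in controls and 40.9 ± 6.44 CPM in global lungs (SD, n = 5 and 5; 3.28 ± 0.19, adjusted p = 2.16e-14). Of 20 other histone chaperone and chromatin copying genes, 16 were higher and 2 lower at E18.5.

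Among regulators, the E2F, RB and MuvB list of 19 had 13 higher and 4 lower genes in global lungs at E18.5 (32.1% and 32.7% of all genes) and 5 higher and 1 lower in epithelial lungs (18.0% and 15.2%). The activator E2f1 was higher by 0.74 ± 0.13 (adjusted p = 7.12e-06) and E2f3 by 1.49 ± 0.10 (adjusted p = 4.9e-13), while E2f2 was lower (-0.81 ± 0.14, adjusted p = 8.67e-06). In epithelial lungs E2f1 was the lower gene (-0.56 ± 0.15, adjusted p = 0.00505). The 5 higher ones were the repressor E2f7 (1.36 ± 0.19, adjusted p = 1.88e-06), Mybl2 (0.73 ± 0.14), Tfdp2 (0.60 ± 0.09), E2f3 (0.49 ± 0.12, adjusted p = 0.00153) and E2f4 (0.32 ± 0.12, adjusted p = 0.0436). Of 11 G1/S cyclins and kinases, 9 were higher and none lower in both global and mesenchymal lungs, with Ccne1, cyclin E1, at 7.42 ± 2.27 CPM in E18.5 controls and 48.1 ± 5.70 CPM in global lungs (SD, n = 5 and 5; 2.65 ± 0.14, adjusted p = 7.79e-15). Ccnd2, cyclin D2, was the 1 higher gene of that list in epithelial lungs (1.66 ± 0.10, adjusted p = 5.92e-13).

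Cyclin-dependent kinase inhibitors are brakes on S phase entry. Of 7 listed, 6 were tested, of which 5 were lower in global lungs at E16.5 (20.1% of all genes). At E18.5 4 were lower (32.7% of all genes), Cdkn1c was higher (1.05 ± 0.11, adjusted p = 1.98e-09) and Cdkn2c, named after its values were seen, was not called (0.11 ± 0.13, adjusted p = 0.461). Cdkn2b was at 53.2 ± 13.6 CPM in E18.5 controls and 2.07 ± 0.907 CPM in global lungs (SD, n = 5 and 5; -4.68 ± 0.28, adjusted p = 3.06e-14). Cdkn1a was at 61.3 ± 33.2 CPM in controls, 13.1 ± 1.90 CPM in global lungs and 326 ± 93.7 CPM in epithelial lungs (SD, n = 5, 5 and 3). It was lower in global lungs (-2.21 ± 0.25, adjusted p = 6.6e-09) and higher in epithelial lungs (2.42 ± 0.26, adjusted p = 2.39e-08).

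Mitosis genes act after replication. Of 22, 10 were higher in global lungs at E16.5 (17.0% of all genes) and 22 at E18.5 (32.1%). In mesenchymal lungs 22 were higher (27.4%) and in epithelial lungs 1 (18.0%), and none was lower in any of these comparisons. Top2a was higher by 1.82 ± 0.17 (adjusted p = 2.41e-10) and Mki67 by 1.47 ± 0.16 (adjusted p = 4.75e-09) at E18.5. The mean log2 CPM of the 22 was 5.05 to 6.16 in E18.5 controls and 7.09 to 7.42 in E18.5 global lungs.

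**Figure D5:**
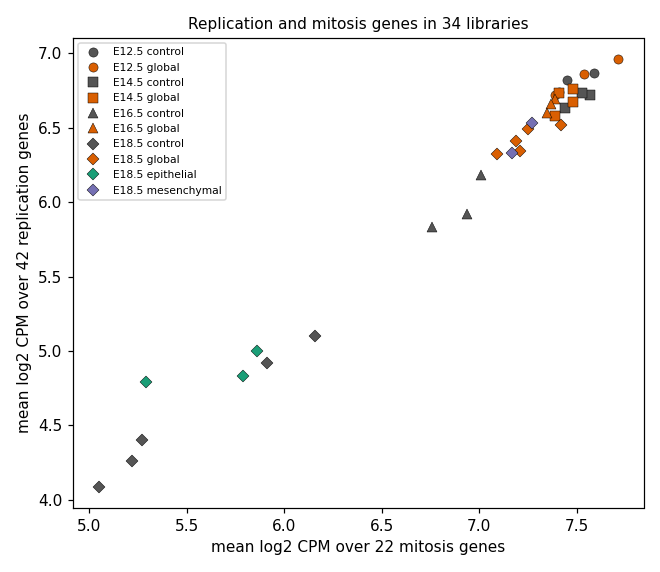
Mean log2 CPM of the 42 genes (one axis) against that of 22 mitosis genes (other axis) in the 34 libraries (points, coloured by group). Both means are lowest in the E18.5 control and epithelial libraries (5.05 to 6.16 for mitosis genes in controls) and higher in all others, and the points share library depth and scaling.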

How the data were processed

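Polyadenylated RNA of whole lungs was sequenced, per the labels' protocols. The deposited tables hold, per gene and library, a raw count and a normalized signal made by the authors. The deposited signal equalled the count divided by a factor per library (0.494 to 1.46, gap at most 2.19%), and only the counts were used. The submitters' processing notes name GRCm38 as the build and list STAR 2.4.2a, HTSeq 0.6.1p1, bcl2fastq 2.17.1.14, DESeq2 1.10.1 and cutadapt. Their order and the strandedness are not given in the sources used here. Exons of Chaf1a, Gins2, Fen1, Orc2, Rfc2, Rfc5, Orc1, Mcm7, Rfc4, Lig1, Cdc45, Orc6, Pole and Rpa1 overlap other genes. Nasp, Pcna and Tyms have annotated pseudogenes named after them, and copies under other names were not searched for. The counts of all these genes are uncertain to that extent. Every gene had a count of at least 6 in 1 library.

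Symbols came from GENCODE M21 (35 of 21789 identifiers had none). Counts were fitted in R 4.3.3 with edgeR 4.0.16: filterByExpr, TMM, and 1 quasi-likelihood model of 34 libraries in 10 groups with 24 residual degrees of freedom (coefficient of variation 0.172). P-values were adjusted over all 18319 genes by Benjamini-Hochberg in each of 20 comparisons. The SE is the fold over the square root of F, and log2 CPM has a prior count of 2. The fit was tested on simulated data. The members and lists were chosen with earlier results of these data known. All members could be named, levels in every library were given for fixed genes and those leading a role, and up to 4 called genes per pathway list. A mesenchymal column is headed Wt2 where its title reads Wt1, and was matched by day and number. Alternatives were DESeq2 size factors, total counts, no filter, DESeq2 1.42.0, only the compared groups, the replicate number as a block and each library left out. Leaving out 7 libraries high in markers of another tissue was added after seeing the data.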

Additional observations from a re-analysis of the deposited data

Results flagged for a closer look

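Values of named members and the summed CPM of all members made 63 sets in groups of 4 or 5 libraries. Of these, 4 held a library far from the rest, and chance marks about 1 in 20 such sets. The sets share libraries and are not independent. Pcna was at 122 CPM in E14.5 global 1, where the other libraries of the group were at 170 to 178 CPM, and at 59.1 CPM in E18.5 control 5, where the others were at 34.3 to 39.4 CPM. In E18.5 global 5, Cdc6 was at 71.2 CPM (others 53.6 to 56.8 CPM) and Rrm2 at 173 CPM (others 125 to 130 CPM).

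By edgeR's test, the global Lin28A effect was larger at E16.5 than at E14.5 for 16 members (4.00% of all genes). Of these, only Rpa2 was called under every alternative. The effect was larger at E18.5 than at E16.5 for 39 members (7.04% of all genes). At E18.5, 42 members were lower in epithelial than in mesenchymal lungs (26.8% of all genes).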

How the results depend on the processing

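The 42 calls in E18.5 global and in mesenchymal lungs and the 42 falls in controls from E16.5 to E18.5 held under every alternative. In E16.5 global lungs 25 of 37 did. Counts of members under the alternatives are given without the share of all genes called under the same alternative. With each library left out in turn, the called members numbered 1 to 2 in E14.5 global lungs, 26 to 38 in E16.5 global lungs, 7 to 20 in epithelial lungs, 41 to 42 between epithelial and mesenchymal lungs, 1 to 2 and 31 to 40 for the first 2 control steps, 0 to 1 for the last global step, 11 to 23 for E18.5 global against E16.5 control lungs, and 1 to 20 and 34 to 41 for the change of the effect to E16.5 and to E18.5.

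With the fit limited to the compared groups, epithelial lungs had 2 called members (12 in the fit of 10 groups), the change of effect to E16.5 38 (16), the E14.5 to E16.5 and E16.5 to E18.5 global steps 3 (0) and 10 (1), and E16.5 global against E14.5 control lungs 2 (1). With total counts, the change of effect to E16.5 had 5, the last global step 0, and the mean log2 CPM of epithelial lungs was 4.72 (4.87). Without a filter the change of effect to E16.5 had 10. The first control step had 2 (1) with DESeq2 size factors and with DESeq2. Leaving out the 7 libraries high in markers of another tissue was an alternative chosen after seeing the data. Counts were then 0 (2) in E14.5 global lungs, 5 in epithelial lungs and 4 for the change of effect to E16.5. E12.5 control 1 was then alone in its group, so no count is given for the first control step.

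Correlations between same-numbered samples were -0.15 to 0.22. With so few libraries per group these values cannot show whether the replicate numbers pair the samples. With the replicate number as a block, counts were 1 (2) in E14.5 global lungs, 38 in E16.5 global lungs, 19 (12) in epithelial lungs, 2 (1) in the first control step, 7 (1) in the last global step, 12 (16) for the change of effect to E16.5 and 14 (23) for E18.5 global against E16.5 control lungs.

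Values in epithelial lungs that changed sign were near 0: Cdc6 at -0.03 and Uhrf1 at -0.11 without the 7 libraries, Uhrf1 at -0.03 with total counts and -0.10 to 0.28 with a library left out, and Tyms at -0.03 to 0.45 with a library left out. Over 112 results of single members, 1549 of 1620 values kept direction and side of the threshold, 61 lost the call, 2 gained one and 8 changed sign. The cause of these changes was not tested.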
